A study of Mus musculus with 12 samples.

Results

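The genes described here are 36 genes of the interferon response and of antigen presentation, followed through hearts in which *Gata4* or *Gata6* had been deleted. They were chosen by name. Each was read from the deposited expression table by the probeset mapped to its symbol, and by the brightest such probeset over the 12 hearts where there were several. Of the 36 genes, 32 had a probeset of their own among 35557 probesets, and these 32 are the measured genes below. The other 4 were not measured here. *Isg15*, *Gbp2* and *Igtp* shared their probeset with another gene, and no probeset was listed for *Ifi44*. The measured genes were 6 of 7 transcription factors and regulators, 18 of 19 RNA sensors and antiviral effectors, 3 of 5 interferon-inducible GTPases and all 5 genes of antigen processing and MHC class I.

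Total heart RNA came from unstressed mice labelled as 8 weeks old, with 1 Affymetrix mouse gene ST array per heart. There were 3 *Gata4*-deleted hearts (*Gata4* floxed with cre), 3 *Gata6*-deleted hearts (*Gata6* floxed with cre), 2 hearts with the cre transgene alone on wild-type alleles, 2 *Gata4* floxed hearts without cre and 2 *Gata6* floxed hearts without cre. Cre was driven by a cardiac myosin heavy chain promoter, named alpha in the labels and beta in the study's methods, so that deletion was directed to cardiomyocytes and the other cells of the heart kept both genes. Both deletion groups and the cre group thus carried the transgene, and the floxed groups did not. The strain background of the lines is not given in the sources used here. The hearts are numbered within groups, nothing in the labels pairs them across groups, and p-values measure the spread between these hearts only.

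Type I interferons are secreted when a cell senses foreign or misplaced nucleic acid. Type I interferon acts through STAT2 and IRF9, which bind an interferon-stimulated response element (ISRE) in target promoters, while interferon gamma acts through a gamma-activated site (GAS) and induces IRF1. The target genes encode nucleic acid sensors, proteins that block viral translation and replication, GTPases that attack vacuoles of intracellular microbes, and the immunoproteasome, peptide transporter and MHC class I light chain that display peptides to cytotoxic T cells. Cardiomyocytes, endothelial cells, fibroblasts and resident macrophages can all express such genes at a basal level.

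Promoter sequences are shown because several of these genes stood low together in the cre hearts. RefSeq windows of 300 bases (250 before to 50 after the transcription start, GRCm38.p6) were matched for 28 of the 36 genes. An ISRE core, TTTCNNTTTC on either strand, stood in a window of 16 of the 28 genes (57.1%), against 3.99% of 27025 genes with a window. A GAS core, TTCNNNGAA, which reads the same on both strands, stood in 8 of the 28 (28.6%), against 9.55%. Matches may overlap each other, and a match is a run of letters, not a measured binding site. The genes were listed as interferon response genes, and a link between motif and signal in these hearts was not tested. *Bst2*, *Eif2ak2*, *Ifitm3* and *Igtp* held both motifs. *Ifi44*, *Irf7*, *Irf9*, *Oasl2*, *Psmb9*, *Tap1*, *Tapbp* and *Xaf1* held neither in these windows. Of the genes with an ISRE core, *Ifit1*, *Ifit3*, *Rsad2* and *Gbp3* are printed as examples with a cre mean below both floxed lines. For *Rsad2* the difference from *Gata6* floxed hearts was small (-0.06). *Irgm1* and *B2m* are printed as examples without such a low cre mean. Not printed are *Stat2*, *Trim30a*, *Eif2ak2*, *Cxcl10* and *Ifitm3*, also below both lines, and *Ifih1* and *Bst2*, which were not. Capitals mark the ISRE core in the 160 bases before the start, 5′ to 3′ along the gene.
*Ifit1*, chr19:34640729-34640888 (plus strand): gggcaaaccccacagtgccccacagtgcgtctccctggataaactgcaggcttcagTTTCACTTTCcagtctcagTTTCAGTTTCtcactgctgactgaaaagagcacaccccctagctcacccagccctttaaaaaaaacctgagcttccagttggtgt
*Ifit3*, chr19:34583369-34583528 (plus strand): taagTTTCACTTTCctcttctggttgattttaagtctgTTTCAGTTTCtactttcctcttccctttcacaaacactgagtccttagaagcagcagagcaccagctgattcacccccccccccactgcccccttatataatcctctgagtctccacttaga
*Rsad2*, chr12:26456453-26456612 (minus strand): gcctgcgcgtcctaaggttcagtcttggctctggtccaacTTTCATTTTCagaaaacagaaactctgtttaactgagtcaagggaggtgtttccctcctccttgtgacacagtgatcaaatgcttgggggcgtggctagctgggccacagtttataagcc
*Gbp3*, chr3:142559884-142560043 (plus strand): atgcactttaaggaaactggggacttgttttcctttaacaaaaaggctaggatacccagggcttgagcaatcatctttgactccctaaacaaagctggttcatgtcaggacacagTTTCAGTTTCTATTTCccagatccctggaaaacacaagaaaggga
*Irgm1*, chr11:48871421-48871580 (minus strand): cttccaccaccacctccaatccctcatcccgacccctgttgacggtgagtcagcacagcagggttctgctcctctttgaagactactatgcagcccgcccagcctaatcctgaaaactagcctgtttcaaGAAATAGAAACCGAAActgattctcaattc
*B2m*, chr2:122147527-122147686 (plus strand): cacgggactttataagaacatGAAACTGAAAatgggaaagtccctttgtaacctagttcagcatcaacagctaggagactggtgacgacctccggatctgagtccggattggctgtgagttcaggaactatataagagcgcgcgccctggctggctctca
In the matching stretch of *Irf1*, the factor induced by interferon gamma, no ISRE core was found and the capitals mark its GAS core.
*Irf1*, chr11:53769854-53770013 (plus strand): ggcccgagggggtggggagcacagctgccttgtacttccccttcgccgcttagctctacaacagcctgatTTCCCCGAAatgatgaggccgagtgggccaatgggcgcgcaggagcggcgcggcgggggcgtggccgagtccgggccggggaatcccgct

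The log2 signals ran from 1.397 to 14.05, array medians from 5.61 to 5.66 and correlations between arrays from 0.979 to 0.991. On the whole-transcript probesets used here, deletion was not visible. The *Gata4* probeset read 9.25, 9.18 and 9.15 in *Gata4*-deleted hearts, against 9.26 and 9.23 in *Gata4* floxed hearts, and the *Gata6* probeset read 8.98, 9.21 and 9.19 in *Gata6*-deleted hearts, against 9.09 and 8.69 in *Gata6* floxed hearts. No values per exon were used, so these probesets do not check the labels. The 6 cardiomyocyte markers were bright in every heart, with a summed signal of 47816 to 51974. In whole-heart RNA, fewer cells of a type and less RNA per cell cannot be told apart.

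To summarise the measured genes in a heart, each log2 signal was taken relative to that gene's mean over the 12 hearts and averaged over the 32 genes. This score was 0.31, -0.11 and 0.02 in the *Gata4*-deleted hearts and -0.03, -0.09 and -0.16 in the *Gata6*-deleted hearts. It was -0.16 and -0.10 in the cre hearts, 0.28 and 0.19 in the *Gata4* floxed hearts and -0.06 and -0.10 in the *Gata6* floxed hearts. *Gata4* floxed hearts were therefore above every heart but *Gata4*-deleted heart 1, which was the highest of all. As group values, the score was 0.07 ± 0.22 with *Gata4* deletion and -0.09 ± 0.07 with *Gata6* deletion (SD, n = 3 each). It was -0.13 ± 0.04 in cre, 0.24 ± 0.06 in *Gata4* floxed and -0.08 ± 0.03 in *Gata6* floxed hearts (SD, n = 2 each). The scores of *Gata6*-deleted, cre and *Gata6* floxed hearts overlapped. No test was run on the score, since the genes were chosen with results of these arrays known.

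**Figure D1:**
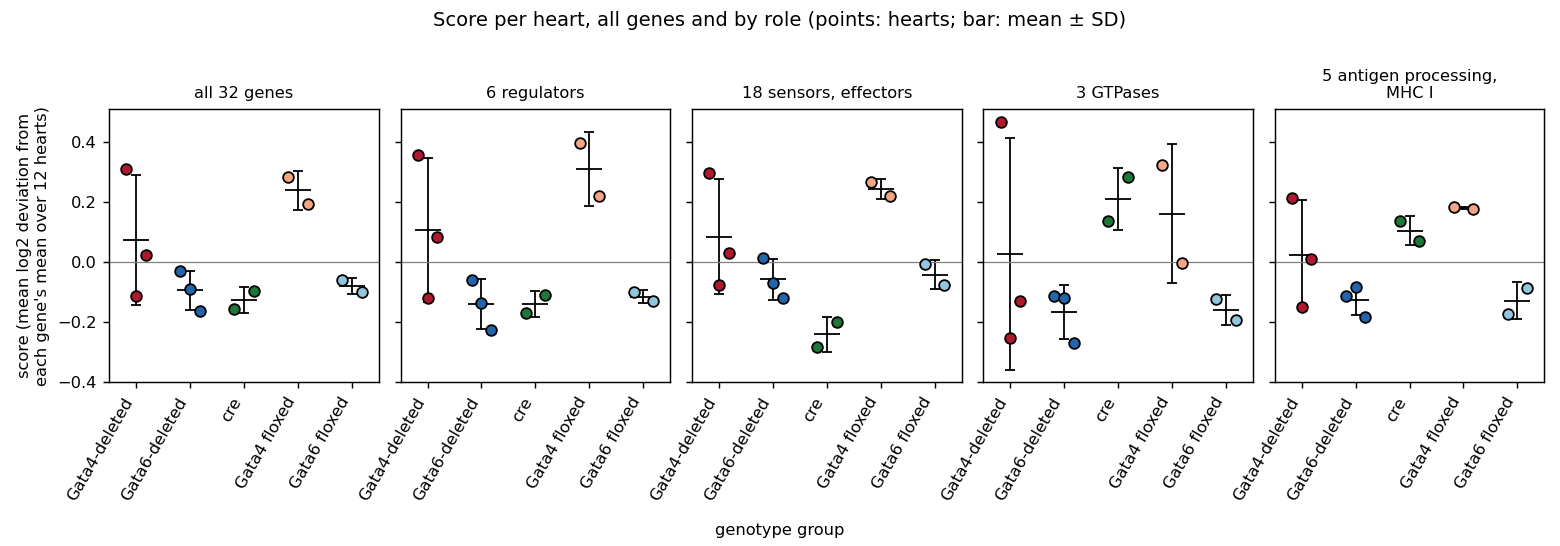
Score per heart (mean log2 deviation from each gene's mean over 12 hearts, y axis) by genotype group (x axis), for all 32 genes and for each role. Points are hearts and bars are the group mean ± SD. *Gata4*-deleted heart 1 (0.31) and the *Gata4* floxed hearts (0.28 and 0.19) lie highest over all genes. Cre hearts are lowest for sensors and effectors but positive for GTPases and antigen genes. Among the GTPases, *Iigp1* was higher and *Gbp3* lower in cre than in floxed hearts.

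By role, the groups did not keep the same order. In cre hearts the sensors and effectors scored -0.28 and -0.20, the lowest 2 values of the 12 hearts, and the regulators -0.17 and -0.11. The GTPases scored 0.14 and 0.28 in the same cre hearts and the antigen processing genes 0.14 and 0.07, all above 0. The 3 GTPases did not move together. Against the mean of the floxed lines, cre hearts differed by 0.83 in *Iigp1*, 0.12 in *Irgm1* and -0.33 in *Gbp3*. In *Gata6*-deleted hearts all 4 roles had negative group means, from -0.06 (sensors and effectors) to -0.17 (GTPases). *Gata6* floxed hearts gave group means of -0.04 to -0.16 over the same roles. *Gata4* floxed hearts had group means of 0.31 for regulators, 0.24 for sensors and effectors, 0.16 for GTPases and 0.18 for antigen processing genes. The mean for GTPases came from scores of 0.32 in *Gata4* floxed heart 1 and -0.0018 in heart 2.

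Single genes spanned 0.35 to 1.78 on the log2 scale between their lowest and highest heart, with a median of 0.67. *Irf7*, the factor that amplifies type I interferon production, had the widest span, and *Tapbp*, which encodes the peptide-loading chaperone tapasin, the narrowest. For 8 of the 32 genes the span was over 1. *Gata4*-deleted heart 1 was the highest heart for 14 genes and stood above both other *Gata4*-deleted hearts for 30 of 32. The median SD within a group was 0.24 for *Gata4*-deleted hearts, 0.09 for *Gata6*-deleted and cre hearts, 0.13 for *Gata4* floxed hearts and 0.07 for *Gata6* floxed hearts. *Bst2*, which encodes the virus-retaining protein tetherin, read 7.21, 6.74 and 6.87 in the *Gata4*-deleted hearts and *Cxcl10*, a chemokine that attracts T cells, 5.24, 4.95 and 5.02. *Xaf1*, a pro-apoptotic gene, read 6.71, 6.33 and 6.48 in the same hearts. By group mean, *Gata4* floxed hearts were highest for 22 genes and cre hearts lowest for 15. Both cre hearts took the lowest 2 of 12 places for 6 genes, which were *Stat2*, *Ifit1*, *Ifit2*, *Ifit3*, *Oas2* and *Parp14*, where 1.99% of all probesets did so. They took the highest 2 places for *Iigp1*, where 3.04% of all probesets did so.

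**Figure D2:**
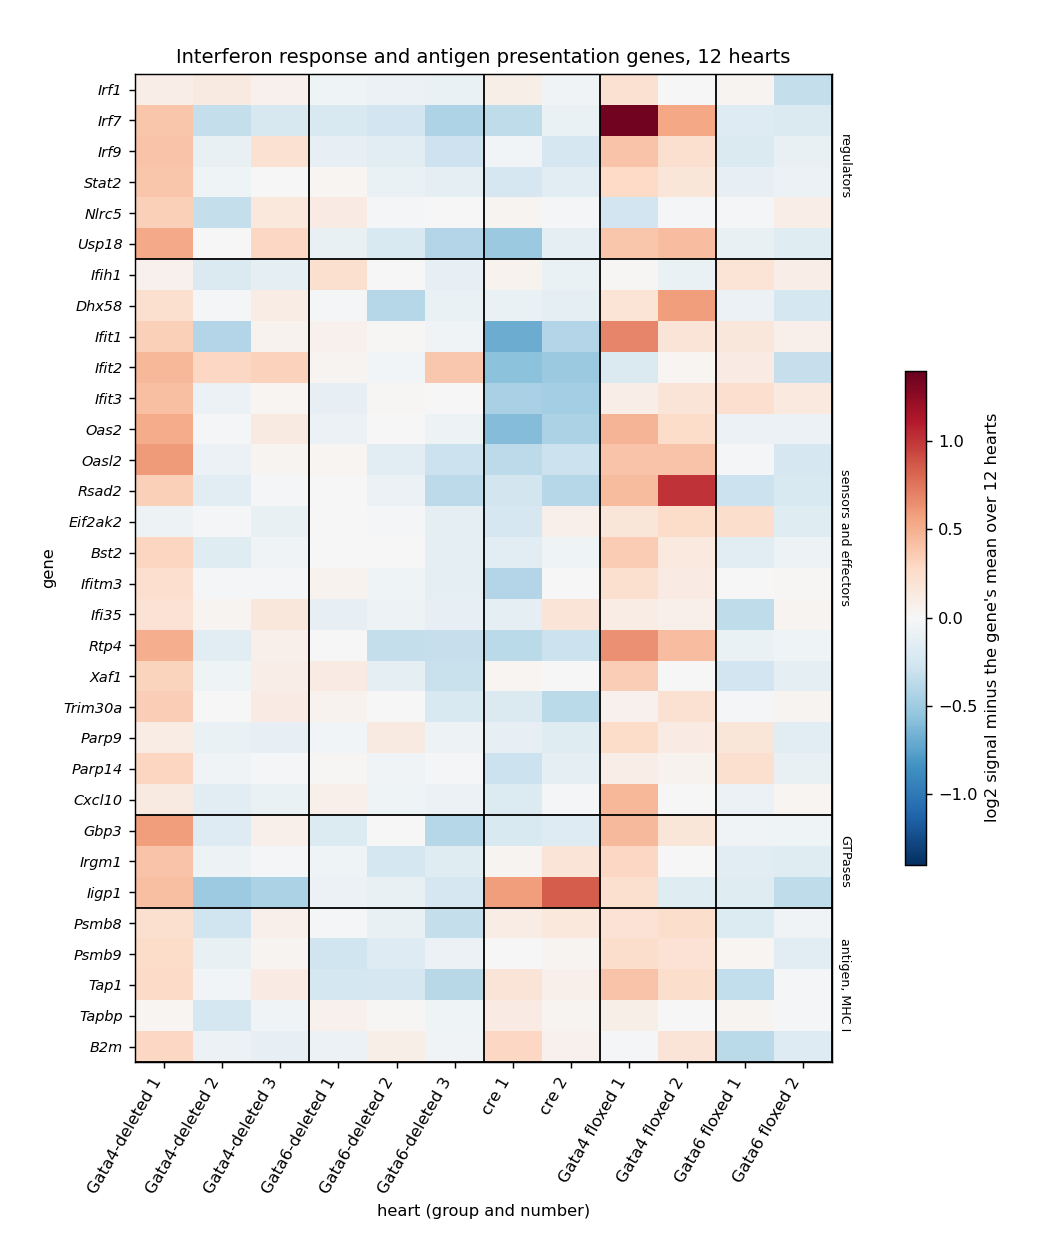
Log2 signal of each of the 32 measured genes (rows, grouped by role) in each of the 12 hearts (columns, by genotype group), shown as the deviation from that gene's mean over the hearts. *Gata4*-deleted heart 1 and *Gata4* floxed heart 1 are high across most rows, and the *Ifit* and *Oas* genes are low in both cre hearts.

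Whether deletion of *Gata4* moved these genes was asked within its own line. *Irf7* read 7.14, 6.42 and 6.52 in *Gata4*-deleted hearts, against 8.11 and 7.30 in *Gata4* floxed hearts, a log2 difference of -1.01 (SE 0.25, limma adjusted p = 0.197). *Rsad2*, which encodes the antiviral enzyme viperin, read 6.48, 5.998 and 6.11 in *Gata4*-deleted hearts, against 6.59 and 7.15 in *Gata4* floxed hearts, a difference of -0.67 (SE 0.19, adjusted p = 0.264). Neither gene overlapped between the groups, but neither passed the threshold of an adjusted p under 0.05. *Rtp4*, an interferon-induced chaperone of membrane receptors, followed with -0.39 (SE 0.18, adjusted p = 0.54). *Ifit2*, which encodes an RNA-binding protein that restrains viral translation, had the opposite sign. It read 7.66, 7.48 and 7.52 in *Gata4*-deleted hearts, against 6.99 and 7.22 in *Gata4* floxed hearts, a difference of 0.45 (SE 0.16, adjusted p = 0.375). The next highest were *Nlrc5*, the transactivator of MHC class I genes, at 0.20 (SE 0.17, adjusted p = 0.793), and *Ifi35* at 0.05 (SE 0.13, adjusted p = 0.946). *Nlrc5* had several probesets, and its average over them differed by -0.07, with the other sign.

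Across the genes, 0 of 32 passed with *Gata4* deletion, where 0.183% of all probesets did. At an unadjusted p under 0.05 there were 1 higher and 2 lower genes (9.38%), against a background of 9.42%. The methods' t-test (named in the study's methods for experiments with 2 groups, but not stated for these arrays) gave 2 genes at that level. By that test 2871 of all 35557 probesets reached it too, and 0 genes and 0 probesets passed after adjustment. The groups did not overlap for 1 higher gene (*Ifit2*) and 4 lower genes (*Irf7*, *Rsad2*, *Eif2ak2* and *Parp9*), where 12.7% of all probesets were higher and 13% lower in this way. *Eif2ak2* encodes the RNA-activated kinase PKR, and *Parp9* an ADP-ribosyltransferase partner of DTX3L. The median log2 difference was -0.15, against 0.00 over all probesets, and 5 of 32 genes had a positive difference. By role the medians were -0.12 for regulators, -0.19 for sensors and effectors, -0.15 for GTPases and -0.16 for antigen processing genes. Without *Gata4*-deleted heart 1 the median was -0.26, without *Gata4*-deleted heart 2 it was -0.04 and without *Gata4* floxed heart 1 it was -0.06.

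The sign of this median turned with the control. Against cre hearts, which share the transgene, the median over the 32 genes in *Gata4*-deleted hearts was 0.15. *Ifit2* then had the largest log2 difference of the 32, 0.91 (limma adjusted p = 0.0509), with 7.66, 7.48 and 7.52 in *Gata4*-deleted hearts, against 6.61 and 6.67 in cre hearts. *Irf7* differed from cre hearts by 0.17 and *Rsad2* by 0.38, while *Iigp1* went the other way at -0.89. Against the mean of cre and *Gata4* floxed hearts the median was 0.02.

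Macrophage markers differed as well inside the *Gata4* line. All 12 had a negative log2 difference in *Gata4*-deleted hearts against *Gata4* floxed hearts, with a median of -0.52. At an unadjusted p under 0.05 there were 10 of the 12, against 9.42% of all probesets, although none passed after adjustment. The summed signal of the 12 was 2271 to 2437 in *Gata4*-deleted hearts, against 3117 to 3582 in *Gata4* floxed hearts. The dimmest, *Fcgr1*, had a lowest reading of 5.02, below the array medians of 5.61 to 5.66. The fibroblast markers had a median difference of -0.34. The part of either cell type in the values of the interferon genes was not tested.

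The same question was asked of *Gata6* deletion within its own line, where the log2 differences of all 32 genes lay between -0.22 and 0.26. *B2m*, which encodes the MHC class I light chain, read 11.09, 11.25 and 11.12 in *Gata6*-deleted hearts, against 10.79 and 10.99 in *Gata6* floxed hearts, a log2 difference of 0.26 (SE 0.14, limma adjusted p = 0.999). *Ifit3*, a partner of IFIT1 and IFIT2, read 5.92, 6.05 and 6.05 in *Gata6*-deleted hearts, against 6.28 and 6.18 in *Gata6* floxed hearts, a difference of -0.22 (SE 0.13, adjusted p = 0.999). The groups did not overlap for either gene. *Ifit2* differed by 0.23 (SE 0.16) and *Irf1* by 0.07 (SE 0.11), while *Psmb9*, an immunoproteasome subunit, and *Ifih1*, the RNA sensor MDA5, each differed by -0.11 (SE 0.11 and 0.12), all with an adjusted p of 0.999. Again 0 of 32 genes passed, as did 0% of all probesets. No gene reached an unadjusted p under 0.05, against 4.91% of all probesets. The methods' t-test gave 1 gene, and 1643 of all 35557 probesets, before adjustment and 0 of either after it. Besides *B2m* (higher), *Irf7*, *Ifit1* and *Ifit3* (lower) did not overlap, where 9.89% of all probesets were higher and 9.23% lower in this way. The median was -0.01. Leaving out single hearts gave medians of -0.06 to 0.02. The 5 fibroblast markers were all positive in this comparison, with a median of 0.30, and the macrophage markers had a median of -0.03. Against cre hearts the median of the interferon genes in *Gata6*-deleted hearts was 0.04, and *Ifit3* differed from cre hearts by 0.43 and *B2m* by -0.20.

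The test of the difference between both changes (*Gata4* change minus *Gata6* change) passed for 0 of 32 genes, against 0.0169% of all probesets. At an unadjusted p under 0.05 it gave 2 genes, both negative (6.25%, the same as the 6.25% of all probesets). They were *Rsad2*, at -0.78 (SE 0.27, adjusted p = 0.711), and *Irf7*, at -0.89 (SE 0.36, adjusted p = 0.776), followed by *B2m* at -0.32 (SE 0.20, adjusted p = 0.884). On the positive side stood *Ifit3* at 0.21 (SE 0.19, adjusted p = 0.941), *Ifit2* at 0.22 (SE 0.22, adjusted p = 0.957) and *Nlrc5* at 0.21 (SE 0.24, adjusted p = 0.962). The average of *Nlrc5* over its probesets gave -0.14, with the other sign. The median over the genes was -0.14, and it was -0.22 without *Gata4*-deleted heart 1, -0.05 without *Gata4*-deleted heart 2 and -0.05 without *Gata4* floxed heart 1. The methods' t-test was not run on this difference.

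**Figure D3:**
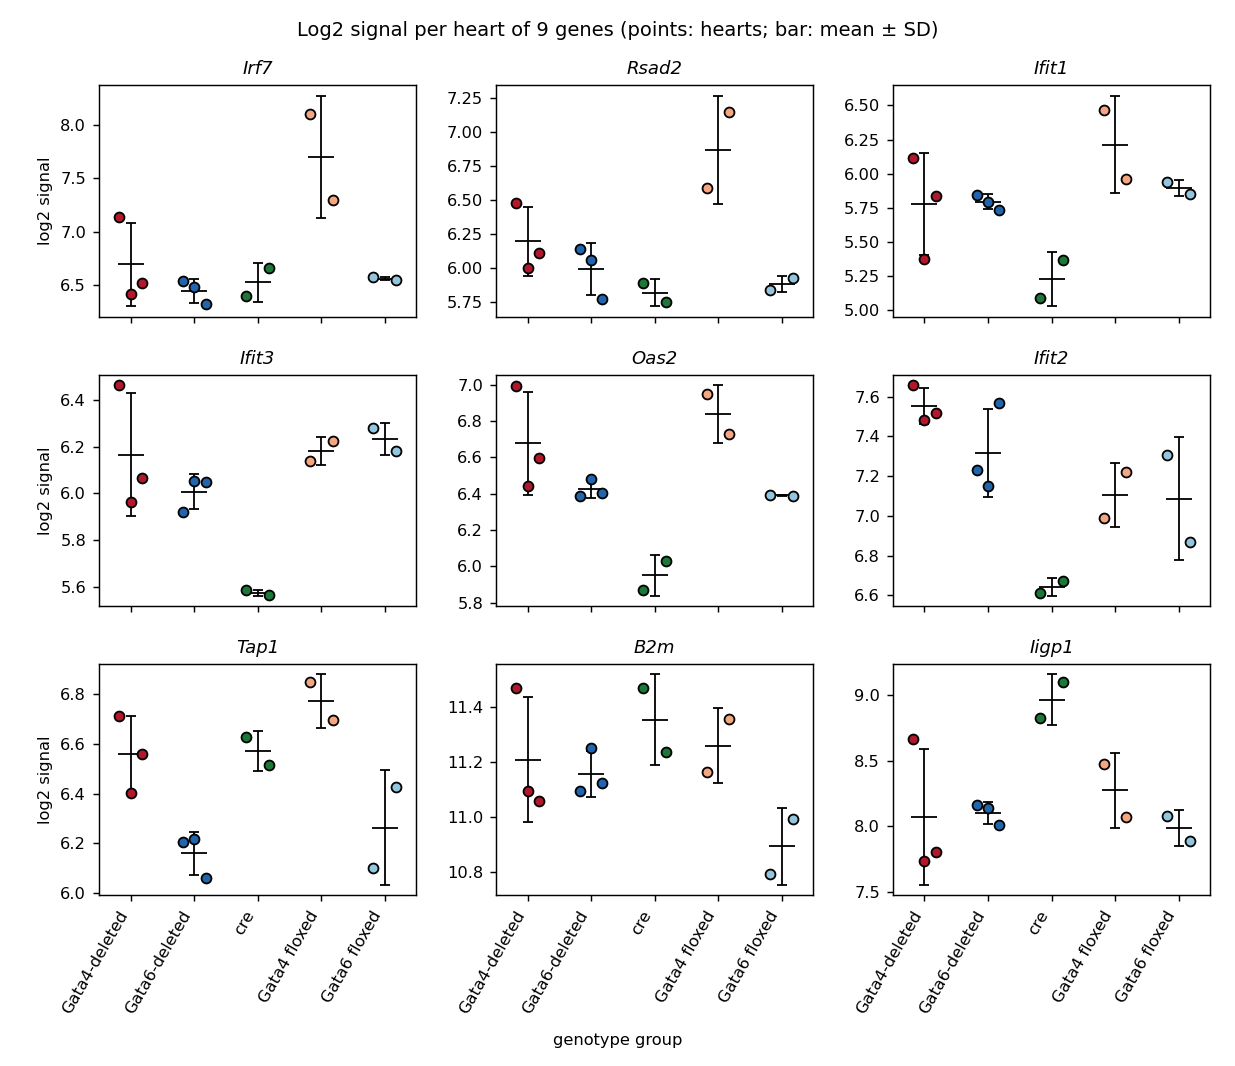
Log2 signal (y axis) of 9 genes in each heart by genotype group (x axis). Points are hearts and bars are the group mean ± SD. *Irf7* and *Rsad2* are highest in the *Gata4* floxed hearts, the *Ifit* genes and *Oas2* lowest in the cre hearts, and *Iigp1* highest in the cre hearts (8.83 and 9.10).

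Set directly against each other, the deletions share the cre transgene but come from different floxed lines. *Tap1*, a subunit of the peptide transporter, read 6.71, 6.40 and 6.56 in *Gata4*-deleted hearts, against 6.20, 6.22 and 6.06 in *Gata6*-deleted hearts, a log2 difference of 0.40 (SE 0.11, limma adjusted p = 0.161). *Usp18*, which removes ISG15 from proteins and restrains the type I receptor, read 6.57, 6.03 and 6.33 in *Gata4*-deleted hearts, against 5.93, 5.82 and 5.63 in *Gata6*-deleted hearts. Its log2 difference was 0.52 (SE 0.15, adjusted p = 0.176). *Irf9*, the DNA-binding partner of STAT2, read 7.33, 6.82 and 7.15 in *Gata4*-deleted hearts, against 6.82, 6.78 and 6.64 in *Gata6*-deleted hearts, which made 0.35 on the log2 scale (SE 0.13, adjusted p = 0.305). In all 3 genes every *Gata4*-deleted heart was above every *Gata6*-deleted heart. The means of the floxed lines without cre differed in the same direction. Cre hearts differed from *Gata4* floxed hearts by -0.20 in *Tap1*, -0.73 in *Usp18* and -0.45 in *Irf9*. From *Gata6* floxed hearts, cre hearts differed by 0.31, -0.18 and 0.02 in the same genes. On the negative side *Ifih1* was at -0.13 (SE 0.10, adjusted p = 0.712), *Tapbp* at -0.10 (SE 0.08, adjusted p = 0.714) and *Parp9* at -0.04 (SE 0.10, adjusted p = 0.928).

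None of the 32 genes passed in this comparison, although 1.08% of all probesets did. At an unadjusted p under 0.05, 5 genes (15.6%) were higher and 0 lower, against 11.7% of all probesets in either direction. The methods' t-test gave 4 genes, and 3771 of all 35557 probesets, before adjustment and 0 of either after it. Higher without overlap were *Irf1*, *Irf9*, *Usp18*, *Dhx58*, *Ifi35* and *Tap1*, 6 of 32 against 8.58% of all probesets, and 0 were lower, against 9.55%. *Dhx58* encodes LGP2, an RNA helicase that tunes MDA5 signalling. The median difference was 0.19, and 25 of 32 genes were positive, with 0.21 for regulators and 0.16 for antigen processing genes. Without *Gata4*-deleted heart 1 the median was 0.05, and without *Gata4*-deleted heart 2 it was 0.28. Macrophage markers ran the other way here, with a median of -0.31, as did fibroblast markers, with a median of -0.20, and their part in these values was not tested.

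The cre transgene alone was set against the mean of both floxed lines. The 3 genes with the smallest p on the lower side were antiviral effectors. *Ifit3* read 5.59 and 5.57 in cre hearts, against 6.14 and 6.22 in *Gata4* floxed and 6.28 and 6.18 in *Gata6* floxed hearts, a log2 difference of -0.63 (SE 0.12, limma adjusted p = 0.167). *Oas2*, which makes the second messenger that activates RNase L, read 5.87 and 6.03 in cre hearts, against 6.95 and 6.73 in *Gata4* floxed and 6.39 and 6.39 in *Gata6* floxed hearts, a difference of -0.67 (SE 0.14, adjusted p = 0.195). *Ifit1*, which binds viral RNA that lacks the cap mark of the host, read 5.09 and 5.37 in cre hearts, against 6.47 and 5.96 in *Gata4* floxed and 5.94 and 5.85 in *Gata6* floxed hearts, a difference of -0.83 (SE 0.20, adjusted p = 0.296). For these 3 genes cre hearts lay below all 4 floxed hearts, and also below every deleted heart. The stretches printed above for *Ifit1* and *Ifit3* each hold 2 ISRE cores, while no window was matched for *Oas2*. *Ifit2* and *Oasl2*, also lower in cre hearts than in all floxed hearts, held no ISRE core in their windows. *Rtp4* and *Parp14*, low in the same way, had no window.

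*Iigp1*, an immunity-related GTPase, went the other way. It read 8.83 and 9.10 in cre hearts, against 8.48 and 8.07 in *Gata4* floxed and 8.08 and 7.89 in *Gata6* floxed hearts, a log2 difference of 0.83 (SE 0.24, adjusted p = 0.374). *B2m* differed by 0.28 (SE 0.13, adjusted p = 0.634) and *Irgm1*, a regulatory GTPase of the same family, by 0.12 (SE 0.14, adjusted p = 0.877), and both of these overlapped with floxed hearts. Both have an ISRE core in the printed stretch, as *Ifit1* and *Ifit3* do. Other genes that cre hearts held apart from floxed hearts were *Stat2*, at 6.68 and 6.77 in cre hearts, against 7.20 and 7.08 in *Gata4* floxed and 6.80 and 6.84 in *Gata6* floxed hearts, and *Ifit2*, at 6.61 and 6.67 in cre hearts, against 6.99 and 7.22 in *Gata4* floxed and 7.31 and 6.87 in *Gata6* floxed hearts. STAT2 is the signal-carrying partner of IRF9. *Gbp3*, a guanylate-binding GTPase, read 7.06 and 7.09 in cre hearts, against 7.73 and 7.44 in *Gata4* floxed and 7.23 and 7.22 in *Gata6* floxed hearts, so that it was low where *Iigp1* was high. *Ifitm3*, a membrane protein that blocks viral entry, read 9.74 and 10.16 in cre hearts, against 10.38 and 10.27 in *Gata4* floxed and 10.15 and 10.17 in *Gata6* floxed hearts, with the second cre heart between the *Gata6* floxed ones. The 5 antigen processing genes had a median difference of 0.05 and none of them reached an unadjusted p under 0.05. Their order depended on the line. *Psmb8*, an immunoproteasome subunit, read 6.77 and 6.82 in cre hearts, against 6.87 and 6.92 in *Gata4* floxed and 6.48 and 6.62 in *Gata6* floxed hearts. Over all 5, the median difference of cre hearts was -0.10 against *Gata4* floxed and 0.25 against *Gata6* floxed hearts.

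In numbers, 0 of 32 genes passed for cre against floxed hearts, where 0.0956% of all probesets did. By the methods' t-test 6 genes, and 2211 of all 35557 probesets, had an unadjusted p under 0.05, and 0 of either passed after adjustment. In the limma fit, 1 gene was higher and 12 were lower at an unadjusted p under 0.05 (40.6%), against 8.33% of all probesets. The sensors and effectors made up 10 of the 12 lower genes and the regulators *Irf7* and *Usp18* the others. Without overlap, *Iigp1* was higher, where 9.33% of all probesets were. Lower without overlap were 10 genes, where 6.46% of all probesets were, namely *Stat2*, *Ifit1*, *Ifit2*, *Ifit3*, *Oas2*, *Oasl2*, *Rtp4*, *Trim30a*, *Parp14* and *Gbp3*. *Trim30a* restrains NF-kappaB signalling in mouse, and *Parp14* is an ADP-ribosyltransferase. The median was -0.22, against 0.01 over all probesets, and -0.29 for sensors and effectors. Which floxed line served as control mattered, since the median was -0.35 against *Gata4* floxed hearts alone and -0.07 against *Gata6* floxed hearts alone. Macrophage markers had a median of -0.20 for cre against floxed hearts, with a summed signal of 2593 to 3008 in cre hearts, against 3117 to 3582 in *Gata4* floxed and 2867 to 3312 in *Gata6* floxed hearts. All 5 fibroblast markers were negative too, with a median of -0.29 and 0 at an unadjusted p under 0.05. Their summed signal was 6428 to 6812 in cre hearts, against 7476 to 8558 in *Gata4* floxed and 6359 to 7125 in *Gata6* floxed hearts. The part of either cell type in the low genes was not tested.

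Between the floxed lines, with no cre in either, the median over the genes was larger in size than in the other 5 comparisons. *Irf7* read 8.11 and 7.30 in *Gata4* floxed hearts, against 6.57 and 6.55 in *Gata6* floxed hearts, a log2 difference of 1.14 (SE 0.28, limma adjusted p = 0.178). *Rsad2* read 6.59 and 7.15 in *Gata4* floxed hearts, against 5.84 and 5.93 in *Gata6* floxed hearts, a difference of 0.98 (SE 0.21, adjusted p = 0.123). *Tap1* read 6.85 and 6.70 in *Gata4* floxed hearts, against 6.10 and 6.43 in *Gata6* floxed hearts, a difference of 0.51 (SE 0.13, adjusted p = 0.209). In these 3 genes both *Gata4* floxed hearts were above both *Gata6* floxed hearts. Negative differences were found for *Ifih1*, at -0.18 (SE 0.13, adjusted p = 0.689), *Nlrc5*, at -0.18 (SE 0.18, adjusted p = 0.8), and *Ifit3*, at -0.05 (SE 0.14, adjusted p = 0.948). The average of *Nlrc5* over its probesets differed by 0.30, so its sign rests on the probeset.

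Even so, 0 of 32 genes passed between the floxed lines, where 0.228% of all probesets did. At an unadjusted p under 0.05, 14 genes were higher and 0 lower (43.8%), against 10.3% of all probesets. The methods' t-test gave 6 genes, and 2293 of all 35557 probesets, before adjustment and 0 of either after it. Higher without overlap were 21 genes, where 20.2% of all probesets were, and *Nlrc5* and *Ifih1* were lower without overlap, where 20% were. With 2 hearts against 2, groups that do not overlap are common. The median was 0.31, against 0.00 over all probesets, and 29 of 32 genes were positive. Regulators had a median of 0.39, antigen processing genes 0.35, GTPases 0.31 and sensors and effectors 0.26. Leaving out *Gata4* floxed heart 1 gave a median of 0.22. All 5 fibroblast markers were positive in this comparison, with a median of 0.35 and 2 at an unadjusted p under 0.05, and their summed signal was 7476 to 8558 in *Gata4* floxed hearts, against 6359 to 7125 in *Gata6* floxed hearts. Of the 12 macrophage markers 10 were positive, with a median of 0.15 and 1 at an unadjusted p under 0.05, and their summed signal was 3117 to 3582 in *Gata4* floxed hearts, against 2867 to 3312 in *Gata6* floxed hearts. No marker of either list passed after adjustment. A score of the 6 endothelial markers, taken in the same way, averaged 0.08 in *Gata4* floxed, -0.02 in *Gata6* floxed and -0.07 in cre hearts. It averaged -0.02 in *Gata4*-deleted and 0.03 in *Gata6*-deleted hearts. The part of fibroblasts, macrophages and endothelial cells in the values of the interferon genes was not tested. The *Gata4* floxed hearts also enter the comparison with *Gata4*-deleted hearts and the comparison with cre hearts, so the values of these comparisons are not independent of each other.

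**Figure D4:**
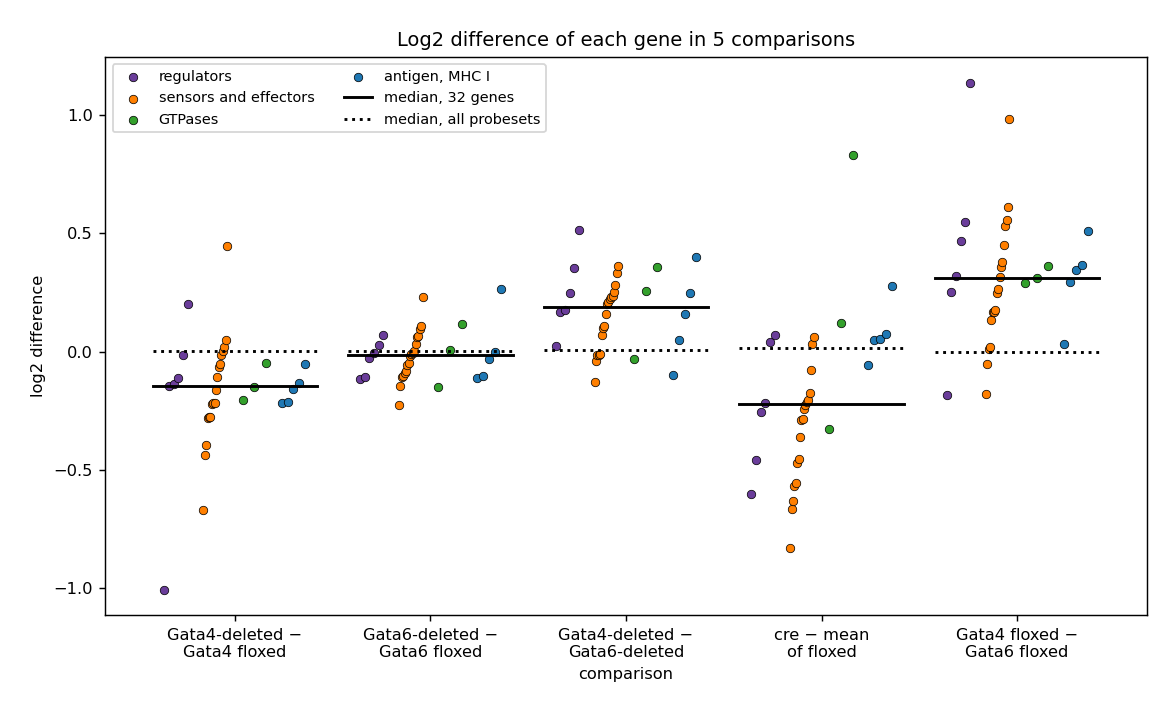
Log2 difference of each measured gene (y axis) in 5 comparisons (x axis), coloured by role. Solid lines are the median over the 32 genes (-0.15, -0.01, 0.19, -0.22 and 0.31 from left to right) and dotted lines the median over all probesets.

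Genes upstream in the pathway were taken from lists set up together with the genes above. Of 7 measured interferon genes, 0 reached an unadjusted p under 0.05 in any of these 5 comparisons between groups, and the medians lay between -0.11 and 0.12. Their summed signal was 219 to 281 over all hearts, against 4142 to 4732 for the 7 receptor and kinase genes below. Markers of T cells, NK cells, B cells, dendritic cells and neutrophils also had 0 genes past the threshold in every comparison. At most 2 genes of a list reached an unadjusted p under 0.05. These lists were dim too, with summed signals of 148 to 174 (T cell), 98 to 128 (NK cell) and 57 to 86 (B cell). Dendritic cell markers summed to 198 to 236 and neutrophil markers to 80 to 100. At such low signals, the lack of a call does not show that these genes or cells were unchanged. The 7 receptor and kinase genes (*Ifnar1*, *Ifnar2*, *Ifngr1*, *Ifngr2* and the JAK kinases) had medians of -0.10 to 0.08. The 9 other STAT, IRF and inhibitor genes had medians of -0.05 to 0.10 in the same comparisons, and *Socs1*, an inhibitor of JAK kinases, was at 0.41 (SE 0.10, adjusted p = 0.0942) in *Gata4*-deleted against *Gata6*-deleted hearts. A further list of 41 interferon-induced genes gave medians of -0.09 for *Gata4* deletion, -0.03 for *Gata6* deletion, 0.19 for *Gata4*-deleted against *Gata6*-deleted hearts, -0.10 for cre against floxed and 0.22 for *Gata4* floxed against *Gata6* floxed hearts.

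A few of these other genes passed the threshold. *Ifi202b*, a member of the interferon-induced DNA-binding p200 family, read 5.06, 4.95 and 4.77 in *Gata4*-deleted hearts, against 3.39, 3.35 and 3.49 in *Gata6*-deleted hearts, a log2 difference of 1.52 (SE 0.09, limma adjusted p = 0.000125). It read 4.74 and 4.78 in *Gata4* floxed hearts, against 3.55 and 3.72 in *Gata6* floxed hearts, a difference of 1.12 (SE 0.11, adjusted p = 0.00283). Cre hearts, at 4.77 and 4.72, were near the *Gata4* line, so that the low values were those of all 5 hearts of the *Gata6* line. All these readings were dim, below the array medians of 5.61 to 5.66, and the filter on dim probesets left this gene out. Within the lines, the difference was 0.17 (adjusted p = 0.662) for *Gata4* deletion and -0.23 (adjusted p = 0.999) for *Gata6* deletion. *Ifi202b* passed in both comparisons between lines without any single heart. By the methods' t-test its adjusted p was 0.1 for the deleted hearts and 0.654 for the floxed hearts, and a fit to the floxed hearts alone gave 0.313.

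*Cxcl9*, a chemokine induced by interferon gamma, read 4.93, 5.20 and 5.15 in *Gata4*-deleted hearts, against 6.10, 6.03 and 5.86 in *Gata6*-deleted hearts, a log2 difference of -0.90 (SE 0.14, adjusted p = 0.0155). *H2-Eb1*, an MHC class II beta chain, read 6.41, 6.20 and 6.24 in *Gata4*-deleted hearts, against 8.05, 7.76 and 7.57 in *Gata6*-deleted hearts. Its log2 difference was -1.51 (SE 0.23, adjusted p = 0.0154). For *H2-Eb1*, *Gata4*-deleted hearts differed from cre hearts by -1.08, and cre hearts from *Gata4* floxed hearts by 1.09. Both groups of the *Gata4* line thus read low, with and without deletion. Cre hearts differed from *Gata6* floxed hearts by -0.0051, and *Gata6*-deleted hearts from cre hearts by 0.42. *H2-T24*, a non-classical MHC class I gene, read 7.64, 7.66 and 7.53 in *Gata4*-deleted hearts, against 7.14, 7.07 and 6.99 in *Gata6*-deleted hearts, which made 0.54 on the log2 scale (SE 0.08, adjusted p = 0.0177). Of these 3 genes, *H2-T24* thus passed in the same direction as the positive median of the 32 genes, and *Cxcl9* and *H2-Eb1* in the opposite one. The macrophage marker *Adgre1* was lower too, at -0.76 (SE 0.14, adjusted p = 0.0404). These calls depended on single hearts. *Cxcl9* no longer passed when *Gata4*-deleted heart 1 or 3 or *Gata6*-deleted heart 1 or 2 was left out (adjusted p = 0.0576 to 0.0712), nor *H2-T24* without *Gata4*-deleted heart 1 or 2 or *Gata6*-deleted heart 2 or 3 (0.065 to 0.0811). *H2-Eb1* passed only without *Gata6*-deleted heart 3 (0.0372) and otherwise lay at 0.0521 to 0.0684, and *Adgre1* did not pass once any heart was left out (0.0899 to 0.144). By the methods' t-test none of these 4 genes passed (0.134 to 0.168), and *H2-T24* did not in a fit to the deleted hearts alone (0.0609). The 9 measured MHC class II genes all had negative differences there, with a median of -0.17, and 1 of 9 passed. The score over these 9 genes averaged -0.21 in *Gata4*-deleted and -0.11 in *Gata4* floxed hearts. It averaged 0.21 in *Gata6*-deleted, 0.11 in cre and -0.0073 in *Gata6* floxed hearts. The *Gata4* line thus averaged below the *Gata6* line with and without deletion, although the hearts of the floxed lines overlapped.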

How the data were processed

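Total RNA of 12 hearts was hybridised to Affymetrix mouse gene ST 1.0 arrays, 1 array per heart. The deposited values are log2 signals per probeset, which the authors made by RMA (background correction, quantile normalization and summary of probes). The RMA version and the annotation are not given in the sources used here. Probesets were named from the platform annotation: 21789 of 35557 had 1 symbol, 1621 had several and were not used for names, and 12147 were not listed. A second deposited table held 12 columns of per-sample values that were not used, because their names could not be tied to single hearts.

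All probesets were fitted in limma 3.58.1 (R 4.3.3) with a mean for each of 5 groups (7 residual degrees of freedom), and each contrast was tested two-sided with Benjamini-Hochberg adjustment over all 35557 probesets and a threshold of 0.05. The steps were tested on simulated data. Genes and lists were chosen with earlier results of these data known, so the score and the medians carry no test. In each comparison the 3 genes with the smallest p on the higher and on the lower side are given in full, with genes of other lists that passed. The other genes with printed values were chosen after their values were seen. Alternatives were other normalizations, a filter on dim probesets, a replicate block, other controls, averaged probesets, single hearts left out, the groups compared alone, another prior, a threshold of 0.1 and the methods' t-test, which the study's methods name for experiments with 2 groups and do not state for these arrays. The comparison of cre hearts with either floxed line alone was added after seeing the data. Arrays give no counts, so the number of hearts limits the precision. Promoters came from RefSeq (GRCm38.p6).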

Additional observations from a re-analysis of the deposited data

How the results depend on the processing

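None of the 32 genes passed at an adjusted p under 0.05 in any of the 6 comparisons or their 95 alternatives, with *Ifit2* in *Gata4*-deleted against cre hearts nearest (0.0509). Of the medians over the genes, 79 alternatives stayed within the spread between hearts and 5 did not. The median for *Gata4* deletion was 0.15 against cre hearts and 0.024 against the mean of cre and floxed hearts. It was -0.35 for cre hearts against *Gata4* floxed hearts alone and -0.073 against *Gata6* floxed hearts alone. Leaving out single hearts gave 0.055 to 0.28 for *Gata4*-deleted against *Gata6*-deleted hearts. The cause was not tested.

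Single genes kept their sign and side of the threshold in 544 alternatives, changed sign in 18 and lost their call in 28. With cre hearts as the control, signs turned for *Irf7* (0.17), *Rsad2* (0.38) and *Rtp4* (0.48) with *Gata4* deletion, and for *B2m* (-0.20), *Irf1* (-0.094), *Ifit3* (0.43) and *Ifih1* (0.061) with *Gata6* deletion. With the mean of cre and floxed hearts they turned for *Rtp4* (0.043), *Irf1* (-0.011) and *Ifit3* (0.10). *Nlrc5* averaged over its probesets gave -0.068 for *Gata4* deletion, -0.14 for the difference between both changes and 0.30 between the floxed lines. *Irgm1* gave -0.034 for cre hearts against *Gata4* floxed hearts alone. Leaving out single hearts gave -0.11 to 0.25 for *Irf1* with *Gata6* deletion, -0.0020 to 0.44 for *Ifit2* in the difference between both changes, and -0.11 to 0.021 for *Parp9* between the deleted groups (0.0022 without *Gata4*-deleted heart 3).

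Replicate numbers gave no clear sign of pairing between hearts. Deviations of hearts with the same number correlated at -0.10 to 0.11, above 0.1 in 1 of 21 pairs. Those with other numbers correlated at -0.14 to 0.14, above 0.1 in 1 of 36 pairs. In groups of 2 hearts the deviations mirror each other, so the pairs are not independent and cannot exclude pairing. With the replicate block, 0 genes passed in every comparison, the median for *Gata4* deletion was -0.12, and *Adgre1* had an adjusted p of 0.111. Groups of 2 or 3 hearts leave wide errors, so values that missed the threshold do not show that groups were alike. The filter on dim probesets left out 2 of the 32 genes.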
